A study of Mus musculus with 8 samples.

Results

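The uroplakin genes Upk1a, Upk1b, Upk2, Upk3a and Upk3b were described in the islets of mice in which Notch signaling was switched on in β cells. These 5 genes were taken out of 32531 gene symbols in the count table, and they were chosen by the counts of Upk3a in Control and NICD libraries, which differed in earlier results of these data. The difference between the groups in the 5 genes is therefore given as a description, with no test. The model fitted across genes took genes with 10 counts or more in 4 or more of the 8 libraries. Upk3a was the only member to pass that filter, and the other 4 genes are given mainly as counts.

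RNA was sequenced from whole islets of 4 control mice and 4 β-tetO-NICD mice, 1 mouse per library. Controls carried RIP-Cre and Rosa26-rtTA but not tetO_NICD, and β-tetO-NICD mice carried all 3 alleles. Mice of both groups were on a mixed background of C57BL/6J, 129X1/SvJ and BALB/c and had received doxycycline (Dox) for 8 weeks, so that the groups shared Cre, the transactivator rtTA and the drug and differed in the NICD transgene. NICD is the intracellular domain of the Notch receptor, which enters the nucleus and activates transcription with the DNA-binding protein RBPJ. RIP-Cre is driven by the rat insulin promoter, which limits rtTA to cells in which that promoter has been active, whereas the RNA came from every cell type of the isolated islet. Ages were not given in the sources used here. Libraries are named Control 1 to 4 and NICD 1, 2, 4 and 5 after the columns of the table, and the columns NICD 4 and NICD 5 could be tied to the group but not to a single mouse. In bulk RNA of this kind, fewer cells of a type and less RNA per cell cannot be told apart.

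Uroplakins are membrane proteins of the urothelium, the lining of the bladder and ureter, where they pack into rigid plaques (the asymmetric unit membrane) on the apical surface of umbrella cells. The tetraspanins Upk1a and Upk1b pair with single-pass partners, Upk1a with Upk2 and Upk1b with Upk3a or Upk3b, and most of the single-pass partners need the tetraspanin to leave the endoplasmic reticulum. Upk1b and Upk3b are also known from mesothelium, the cell layer that covers internal organs.

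Upstream sequence is shown for Upk3a, whose counts differed between the groups, and for Upk1a, the other member with counts in all 8 libraries. Each run is the 250 bases before the start of the gene in RefSeq (GRCm38.p6), 5′ to 3′ on the gene's strand, at chr15:85016891-85017140 (plus strand) for Upk3a and chr7:30612735-30612984 (minus strand) for Upk1a. Capitals mark matches, on either strand, to the letters TGGGAA (the core of the RBPJ motif), GGGCGG (GC box), CCAAT and TATAAA.
Upk3a: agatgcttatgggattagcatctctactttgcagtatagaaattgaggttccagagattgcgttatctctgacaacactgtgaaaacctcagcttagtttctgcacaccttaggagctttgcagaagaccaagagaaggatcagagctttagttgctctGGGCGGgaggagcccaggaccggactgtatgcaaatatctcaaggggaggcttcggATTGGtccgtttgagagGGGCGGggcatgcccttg
Upk1a: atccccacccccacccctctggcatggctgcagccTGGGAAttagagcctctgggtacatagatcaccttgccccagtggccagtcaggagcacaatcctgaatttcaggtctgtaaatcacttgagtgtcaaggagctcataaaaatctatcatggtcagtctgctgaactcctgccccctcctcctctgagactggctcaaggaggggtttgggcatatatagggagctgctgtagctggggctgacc
The Upk3a run held GGGCGG at positions -91 and -18 from the gene start and CCAAT on the reverse strand at -35, with no match to TGGGAA or TATAAA. The Upk1a run held TGGGAA at -215 and none of the other 3 motifs. That position counts from the RefSeq start. In GENCODE M21, Upk1a spans chr7:30603092-30612847, so part of its run lies within the gene as annotated there. The corresponding run of Upk3b held none of the 4, and those of Upk1b and Upk2 were not analysed here. Among 27025 upstream runs of the same length, TGGGAA was found in 21.5%, GGGCGG in 32.9%, CCAAT in 34.5% and TATAAA in 13%, so each of these matches is common. A missing match says only that the letters are not in this window.

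Libraries held between 21701223 and 26413146 counts. The transgene was visible as Notch1, whose level was 41.6 to 64.9 CPM (counts per 1000000 counts of the library after TMM scaling) in controls and 573 to 1320 CPM in NICD libraries (log2 fold change 4.18, SE 0.30, adjusted P = 0.000102, edgeR). Islet endocrine markers were present in every library, with Ins2 at 10.6% to 12% of all counts in controls and 4.52% to 10.4% in NICD libraries. Across the table, 1020 of 15082 genes tested passed the threshold of an adjusted P of 0.05 (6.76%), 632 of them higher (4.19%) and 388 lower (2.57%) in NICD libraries, and the median log2 fold change was 0. A total of 2433 genes had no overlap between the groups in either direction (16.1%). NICD 1 stood apart with the largest share of 9 acinar genes, 9.35% of counts against 3.02% to 4.44% in the other NICD libraries and 3.07% to 6.16% in controls. Libraries also differed in the slope of expression on transcript length, with rank correlations across 14655 genes of 0.42, 0.47, -0.17 and 0.5 in Controls 1 to 4 and 0.45, -0.52, -0.36 and -0.51 in NICD 1, 2, 4 and 5. The study's methods name males for expression measurements, whereas the Y-linked gene Eif2s3y had 1300 counts in Control 2, 1527 in Control 4, 1465 in NICD 5 and at most 1 in each of the other 5 libraries.

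Upk3a was low in control islets and among the abundant transcripts of Notch-active islets. Upk3a, the single-pass partner of Upk1b, had 25, 26, 86 and 27 counts in Controls 1 to 4. In NICD libraries 1, 2, 4 and 5 it had 7515, 19867, 22506 and 18975 counts. The groups did not overlap, which held for 8.22% of all genes in this direction, and the lowest NICD library was 105-fold above the highest control in CPM. The level was 1.69 ± 1.14 CPM in controls and 731 ± 264 CPM in NICD libraries (SD, n = 4 each), a log2 fold change of 8.75 (SE 0.57). Upk3a was called higher in the fit across genes, 1 of 1 member tested, beside 4.19% of all genes, and nothing is read from that count because this contrast chose the gene. Control 3 was the highest control, at 3.4 CPM against 1.1 to 1.15 CPM in the other 3, and NICD 1 was the lowest NICD library, at 357 CPM against 747 to 955 CPM. The log2 fold change was 9.35 without Control 3 and 8.98 without NICD 1. In the libraries with Eif2s3y counts, Upk3a was at 1.1 and 1.1 CPM in controls against 955 CPM in NICD 5, and in those without it, at 1.15 and 3.4 CPM against 357, 867 and 747 CPM.

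**Figure D1:**
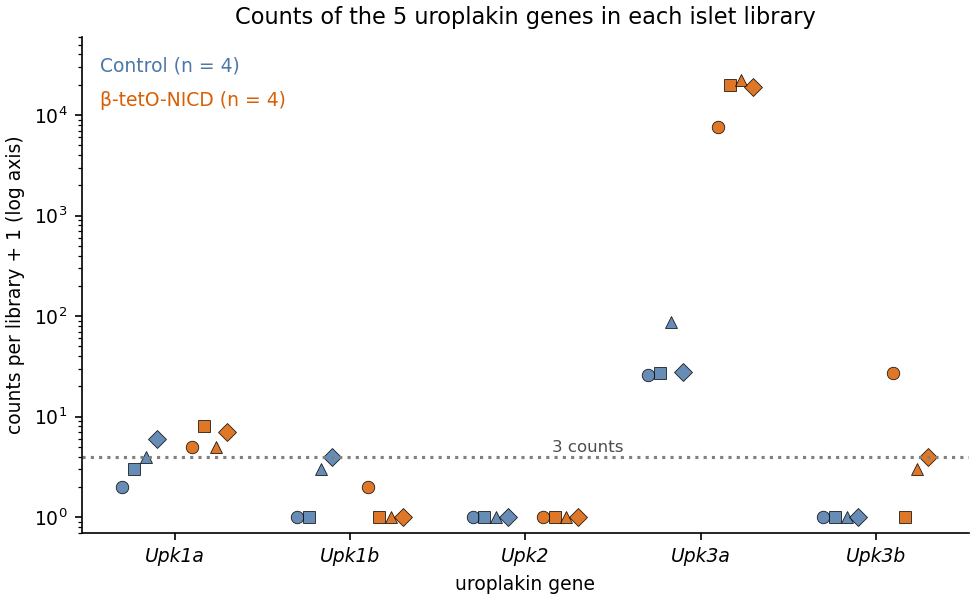
Counts of the 5 uroplakin genes in each of the 8 libraries (y axis, counts per library plus 1, log scale), with a point per library, the groups in separate colours, a marker shape per library and a dotted line at 3 counts. Upk3a lies between 25 and 86 counts in controls and between 7515 and 22506 in NICD libraries, whereas the other members stay at or below 26 counts in every library.

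The other members stayed near 0 in both groups. Upk1a, the tetraspanin partner of Upk2, had 1, 2, 3 and 5 counts in controls and 4, 7, 4 and 6 in NICD libraries, and the groups overlapped (0.113 ± 0.0668 and 0.233 ± 0.0855 CPM). Upk1b, the tetraspanin partner of Upk3a, had 0, 0, 2 and 3 counts in controls and 1, 0, 0 and 0 in NICD libraries, at or under 3 counts in all 8. Upk2, the single-pass partner of Upk1a, was at 0 in all 8 libraries, where 3 counts would correspond to 0.0995 to 0.151 CPM. Upk3b, the mesothelial relative of Upk3a, was at 0 in all 4 controls and had 26, 0, 2 and 3 counts in NICD libraries, so that NICD 1 held most of its counts. The related gene Upk3bl had 1 count in NICD 4 and 0 in the other 7 libraries.

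Nearly all uroplakin counts came from 1 gene. The 5 genes together had 180 counts in the 4 controls, 164 of them Upk3a (91.11%), and 68916 in the 4 NICD libraries, 68863 of them Upk3a (99.92%). The other 4 genes summed to 1, 2, 5 and 8 counts in controls and to 31, 7, 6 and 9 in NICD libraries, and 26 of the 31 in NICD 1 were Upk3b. None of the 31-base words of the Upk3a transcript in GENCODE M21 (1063 words) occurs in the transcripts of another gene, so its counts could not be shared with another member.

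Set per kilobase of the longest annotated transcript, Upk3a (1093 bases) was at 1.54 ± 1.05 CPM per kb in controls and 669 ± 241 CPM per kb in NICD libraries. In NICD libraries the order of the levels was Upk3a, Upk1a (0.164 ± 0.0602), Upk3b (0.103 ± 0.166), Upk1b (0.00627 ± 0.0125) and Upk2 (0), and it was the same with the median transcript length. Below Upk3a, the neighbours Upk1a and Upk3b, Upk3b and Upk1b, and Upk1b and Upk2 lay within their spread over libraries. On this scale Upk3a stood at place 10903 of 14655 genes in controls and at place 98 in NICD libraries, with 99.3% of the genes below it. Its level in NICD libraries was above that of the Notch target Hes1 (30.1 ± 7.24) and of Pdx1, a transcription factor of β cells (61.7 ± 6.62). G6pc2, the glucose-6-phosphatase subunit of the islet, was at 174 ± 25 CPM per kb in the same libraries. Upk3a is short, and the trend with length at its size was -0.3, -0.33, 0.05 and -0.39 on the log2 scale in Controls 1 to 4 and -0.26, 0.41, 0.14 and 0.73 in NICD 1, 2, 4 and 5. With the trend taken out, Upk3a was at 1.41, 1.38, 3.29 and 1.44 CPM in controls and 427, 652, 677 and 576 CPM in NICD libraries, a log2 fold change of 8.24 (SE 0.37), and the spread among NICD libraries was narrower.

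The order of the NICD libraries by Upk3a depended on whether the trend with transcript length was taken out. So did the order by Notch1 when corrected at its annotated length. As scaled counts, Notch1 was at 1010, 1320, 1220 and 573 CPM in NICD 1, 2, 4 and 5, and Upk3a at 357, 867, 747 and 955 CPM, so that NICD 5 had the lowest Notch1 and the highest Upk3a. With the length trend taken out, Upk3a was at 427, 652, 677 and 576 CPM and Notch1, with an annotated transcript of 9488 bases, at 790, 1970, 1500 and 841 CPM. NICD 1 was then the lowest and NICD 5 the next lowest for both genes. The Notch1 correction used the full annotated length, whereas NICD encodes only the intracellular part of the receptor. The length of the transgene transcript was not given in the sources used here, so the corrected order by Notch1 is uncertain. Upk3a per 100 counts of Notch1, with no length correction, was 35.4, 65.6, 61.4 and 167 in these libraries and 1.77, 1.91, 8.18 and 1.73 in controls. NICD 1 was also the lowest NICD library for Hes1, Hey1, Hes5 and Nrarp, 4 genes known as direct Notch targets, at 0.71, 0.51, 0.28 and 0.64 of their own NICD mean, beside 0.49 for Upk3a. NICD 5 was the highest for these 4 genes and for Upk3a. With the length trend taken out, NICD 1 was again the lowest for the 4 genes, at 0.96, 0.58, 0.42 and 0.71 of the mean beside 0.73 for Upk3a, whereas NICD 5 was the highest for Hey1 and Hes5 but not for Hes1, Nrarp or Upk3a. Heyl, another such target, was lowest in NICD 5 both without the correction (0.58 of its mean) and with it (0.64). With 4 libraries no correlation was computed. NICD 1 had the largest acinar share as given above, and NICD 5 differed from the other 3 in Eif2s3y, and the part of these in the order of the libraries was not tested. Per 1000 counts of Ins2, the insulin gene, Upk3a was at 7.65, 10.8, 12 and 8.15 in NICD libraries and at 0.0099 to 0.0276 in controls. Of the 8 Notch target genes tested, 5 were higher and 0 lower, beside 4.19% and 2.57% of all genes. Among the 5 were Hey1 (log2 fold change 4.04), Heyl (3.56), Nrarp (3.36) and Hes1 (2.61). The other was Hes5, which had at most 1 count in each control and met the count filter only through the NICD libraries. Hey2, Notch3 and Dtx1 did not pass (log2 fold changes 0.14, -0.64 and 0.36).

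**Figure D2:**
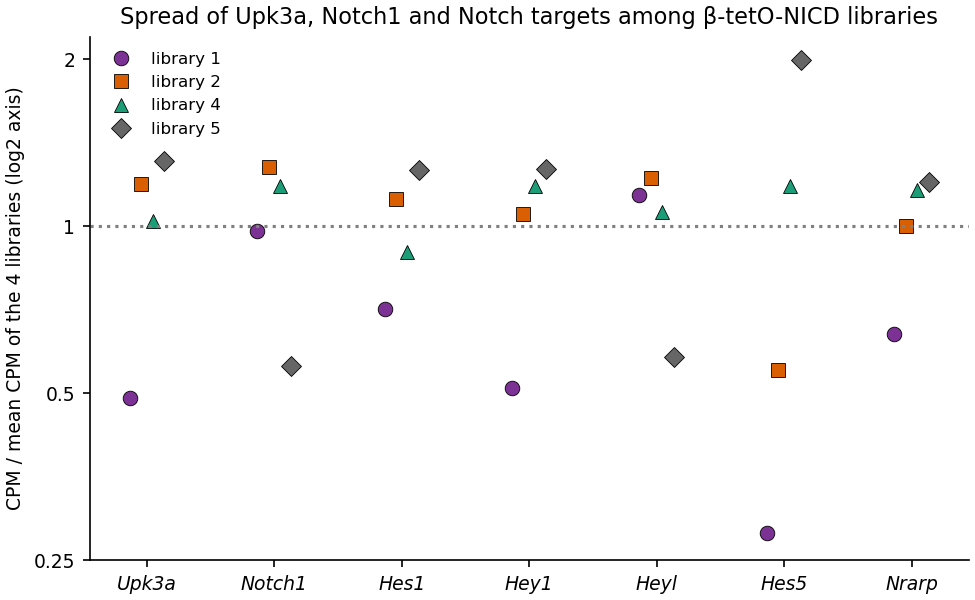
Level of Upk3a, Notch1 and 5 Notch target genes in each NICD library, divided by the mean of the 4 NICD libraries for that gene (y axis, ratio to mean on a log2 scale, with the dotted line at the mean and a marker per library). Upk3a runs from 0.49 in NICD 1 to 1.31 in NICD 5, whereas Notch1 is lowest in NICD 5, at 0.56. The levels plotted are not corrected for the length trend.

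The pattern of 5 genes was most like that of Upk3a over the 8 libraries, by the root mean square difference of log2 CPM after each gene was centred on its mean. Tacr1, the receptor for substance P, was closest (difference 0.86, Pearson r 0.99), with 1, 3, 10 and 8 counts in controls and 936, 1114, 1929 and 890 in NICD libraries. Dio2, the enzyme that activates thyroid hormone, followed (1.31, r 0.974), with 0 to 6 counts in controls and 319 to 622 in NICD libraries. Lmntd1 (1.33, r 0.988) had 0 to 3 counts in controls and 232 to 582 in NICD libraries. Rhov (1.34, r 0.994) had 14 to 41 counts in controls and 789 to 2749 in NICD libraries. Hes5, a Notch target and transcriptional repressor (1.38, r 0.981), had at most 1 count in controls and 71 to 479 in NICD libraries. None of the 5 had more than 41 counts in a control, and Upk3a had the most counts of the 6 in every NICD library. These genes were chosen for the difference between the groups, 136 of 15081 genes had an r above 0.95 to Upk3a, and ranking by r in place of the difference shared 1 of the 5 genes. Of the upstream runs of these 5 genes, 1 held TGGGAA (Hes5).

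Upk3a lies on the plus strand at chr15:85017141-85022547 (GRCm38, GENCODE M21), as 1 transcript of 6 exons, and no other gene overlaps it. Of the 4 tested genes that start within 100 kb of it, Fam118a was higher in NICD libraries and the other 3 did not pass the test. Fam118a (chr15:85028948-85062830, plus strand) starts 11.8 kb after the start of Upk3a and 6.4 kb after its end. It was at 18.5, 21, 20.1 and 16.5 CPM in controls and 28.8, 35, 37.2 and 40.3 CPM in NICD libraries. The groups did not overlap, and the log2 fold change was 0.89 (SE 0.15, adjusted P = 0.0092, edgeR), against 8.75 for Upk3a. It passed in all 8 fits that left out 1 library (highest adjusted P = 0.0437, edgeR), but not in a fit to the 5 libraries without Eif2s3y counts (log2 fold change 0.80, adjusted P = 0.161, edgeR). For Nup50, a nuclear pore protein gene 93.7 kb before Upk3a, the log2 fold change was 0.04 (adjusted P = 0.812, edgeR). For 5031439G07Rik and Gm29666, which carry no gene name, it was -0.31 and -0.26 (adjusted P of 0.232 and 0.545 by edgeR).

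**Figure D3:**
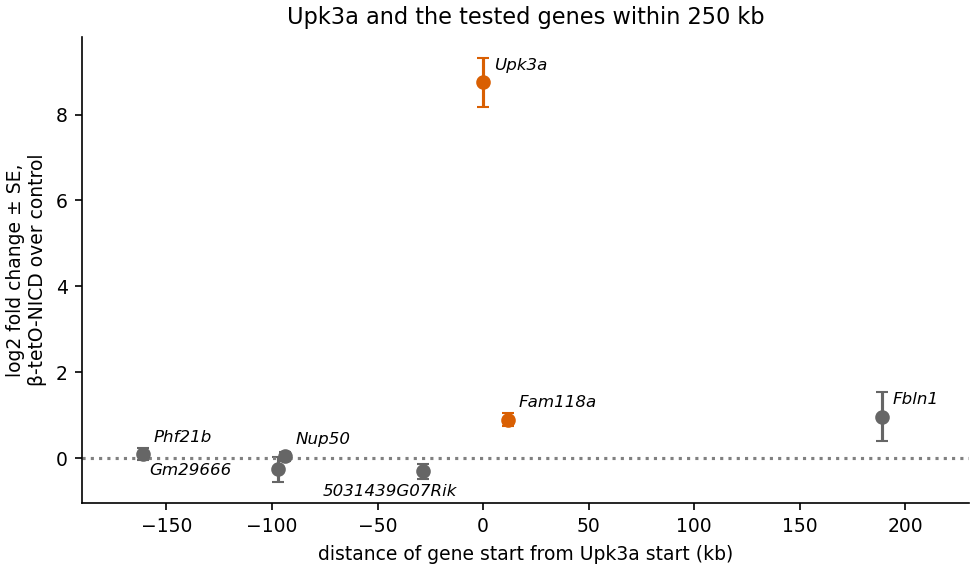
Log2 fold change of Upk3a and of the tested genes within 250 kb of it (y axis, NICD against Control, bars are standard errors, coloured where the adjusted P was under 0.05) by distance of their start from the start of Upk3a (x axis, kb). Upk3a stands at 8.75 and Fam118a at 0.89, whereas Nup50 lies at 0.04.

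Around all 5 members, 35 genes within 100 kb were tested, of which 1 was higher and 1 lower, or 5.71% beside 6.76% of all genes. The lower one was Igsf11, an immunoglobulin-family adhesion gene 92.3 kb from the start of Upk1b, at 20.1, 11.4, 12.4 and 14.2 CPM in controls and 3.23, 1.22, 3.52 and 4.03 CPM in NICD libraries (log2 fold change -2.27, SE 0.35, adjusted P = 0.00564, edgeR). It passed in all 8 fits that left out 1 library and reached an adjusted P of 0.0636 in the 5 libraries without Eif2s3y counts (edgeR). Of the 28 tested genes next to Upk1a, Upk2 and Upk3b, edgeR called 0, with 6 at an unadjusted P under 0.05 (31.6% of all genes), 3 called by DESeq2 (18.2% of all genes) and 0 by limma-voom (7.18%).

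Genes that go with uroplakins in urothelium were examined beside Upk3a. Of 10 transcription factors known for urothelial differentiation, 7 were tested, with 1 higher, 1 lower (beside 4.19% and 2.57% of all genes) and a median log2 fold change of 0.39. Pparg, a nuclear receptor known to promote urothelial differentiation and uroplakin expression, fell, from 7.24, 8.57, 11.9 and 5.92 CPM in controls to 2.99, 3.71, 2.89 and 1.91 CPM in NICD libraries (log2 fold change -1.54, SE 0.28, adjusted P = 0.0134, edgeR). The groups did not overlap, and the call was lost without NICD 4 (adjusted P = 0.0521, edgeR). Ehf, an epithelial ETS factor, was higher, at 26.8 to 33.9 CPM in controls and 40.9 to 59.9 CPM in NICD libraries (log2 fold change 0.75, SE 0.16, adjusted P = 0.0233, edgeR). Ehf passed in 2 of 8 fits that left out 1 library, and its adjusted P was at most 0.079 in the other 6 (edgeR), which left out any of the 4 controls, NICD 2 or NICD 4. For Rxra, the partner of Pparg, the log2 fold change was 0.42 (adjusted P = 0.147, edgeR), and 0.63 with the length offset, where it was called higher (adjusted P = 0.0237, edgeR). For Grhl3, a grainyhead factor of urothelium, it was 1.04 (adjusted P = 0.139, edgeR) at 0.253 to 0.608 CPM in controls and 0.403 to 1.19 CPM in NICD libraries. Foxa1 had 2 to 6 counts, Gata3 1 to 12 and Trp63, a basal cell factor, at most 1 in each library.

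Of 12 urothelial keratins and surface genes, 3 were tested and 0 called by edgeR (6.76% of all genes). At an unadjusted P under 0.05 there were 0 (31.6% of all genes), and DESeq2 (18.2%) and limma-voom (7.18%) called 0. Krt7, a keratin of simple and transitional epithelium, was at 193 ± 41.3 CPM in controls and 183 ± 46.6 CPM in NICD libraries, and Cldn4, a tight junction claudin, at 64.3 ± 20 and 79.2 ± 9.52 CPM. Krt20, the umbrella cell keratin, had 0 to 6 counts, the basal keratins Krt5 and Krt15 had at most 1 count, and Krt14 had 0 in every library. Psca, a surface protein of urothelium, was at 0 in all 4 controls and had 1, 6, 1 and 3 counts in NICD libraries.

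Of 10 genes for vesicle traffic of uroplakins, 9 were tested, with 1 higher, 0 lower (beside 4.19% and 2.57% of all genes) and a median of 0.04. Rab27b, a small GTPase of secretory and fusiform vesicles, had 80, 105, 75 and 100 counts in controls and 280, 160, 264 and 123 in NICD libraries (log2 fold change 1.22, SE 0.27, adjusted P = 0.0289, edgeR). The groups did not overlap, and Rab27b passed in 2 of 8 fits that left out 1 library (edgeR, adjusted P up to 0.0765 without any of the 4 controls, NICD 2 or NICD 4). For Rab11a, a GTPase of recycling endosomes, the log2 fold change was 0.35 (adjusted P = 0.295, edgeR), and for Rab27a, the relative of Rab27b, it was -0.44 (adjusted P = 0.0798, edgeR). The Rab27a groups did not overlap, at 209 to 233 CPM in controls and 148 to 194 CPM in NICD libraries, and it was called lower by DESeq2 (adjusted P = 0.00837) and by edgeR with the length offset (0.041) or without NICD 1 (0.0168). Snap23, a SNARE protein of membrane fusion, was at 21.8, 25, 20.8 and 27.3 CPM in controls and 18.9, 9.03, 13.3 and 11.5 CPM in NICD libraries, with no overlap. Its log2 fold change was -0.85 (edgeR adjusted P = 0.0514), and it was called lower by DESeq2 (adjusted P = 0.00613), limma-voom (0.0398) and edgeR with the length offset (0.0403). Snx31, a sorting nexin of the urothelium, had at most 2 counts in any library.

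Of 29 other tetraspanins, 26 were tested, with 2 higher, 0 lower and a median of 0.28, so that 7.69% were called beside 6.76% of all genes. Cd81 was at 113, 103, 96.7 and 81 CPM in controls and 165, 244, 219 and 240 CPM in NICD libraries (log2 fold change 1.14, SE 0.17, adjusted P = 0.00557, edgeR), and passed in all 8 fits that left out 1 library. Tspan6 was higher by 0.98 on the log2 scale (SE 0.26, adjusted P = 0.0498, edgeR) and passed in 1 of 8 such fits, the one without NICD 1, with an adjusted P of up to 0.14 in the other 7 (edgeR). For Cd63, a tetraspanin of lysosomes and granules, the log2 fold change was 0.06, and for Tspan7 it was 0.14 (edgeR adjusted P = 0.909 and 0.536). In the 5 libraries without Eif2s3y counts none of Pparg, Ehf, Rab27b, Cd81 and Tspan6 passed (edgeR adjusted P = 0.084, 0.129, 0.132, 0.151 and 0.27), with each log2 fold change on the same side of 0 as in all 8 libraries, and 116 genes passed in all.

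**Figure D4:**
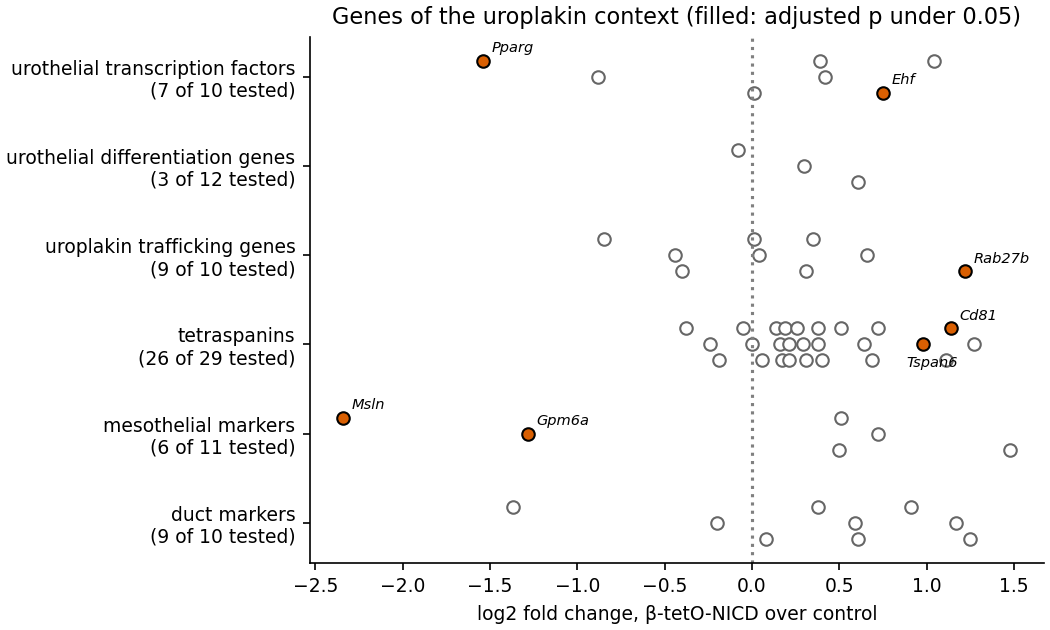
Log2 fold changes (NICD against Control) of the tested genes of each list around the uroplakins, with a point per gene, filled where the adjusted P was under 0.05. Pparg lies at -1.54 and Ehf at 0.75 among the urothelial factors, and Msln at -2.34 among the mesothelial markers.

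Mesothelium, a cell layer known for Upk1b and Upk3b, and other cell types that islet preparations can hold were checked by their markers. Of 11 mesothelial markers, 6 were tested, with 0 higher, 2 lower (beside 4.19% and 2.57% of all genes) and a median of 0.51. The median was -0.38 over the genes with 10 counts in every library, 0.07 with the length offset and 0.01 without NICD 2, so that its direction depended on the setting. Msln, the surface protein mesothelin, had 1303, 3169, 1793 and 1504 counts in controls and 362, 351, 269 and 454 in NICD libraries (log2 fold change -2.34, SE 0.34, adjusted P = 0.00473, edgeR). Gpm6a, a membrane glycoprotein, had 333, 559, 509 and 427 counts in controls and 182, 142, 251 and 166 in NICD libraries (log2 fold change -1.28, SE 0.19, adjusted P = 0.0048, edgeR). Both passed in all 8 fits that left out 1 library, and in the 5 libraries without Eif2s3y counts Msln passed and Gpm6a did not (edgeR adjusted P = 0.0303 and 0.0965). The summed level of the list was 82.4 to 165 CPM in controls and 26.1 to 37.7 CPM in NICD libraries, and most of it was Msln, at means of 81.4 and 16.1 CPM. The other 4 tested markers had positive log2 fold changes that did not pass (Wt1 0.72, Nkain4 0.50, Cldn15 0.51 and Pkhd1l1 1.48, edgeR). Bnc1 had 0 or 1 count in controls and 2 to 7 in NICD libraries, and Muc16 was at 0 in all 8. NICD 1, which held 26 of the Upk3b counts, was also the highest library for Lrrn4, Wt1 (26 counts) and Pkhd1l1 (52 counts). Lrrn4 had 15 counts there, against 0 in the other NICD libraries and 2 to 7 in controls. By counts, NICD 1 was also the highest for Aldh1a2 (12) and tied with NICD 4 for Rspo1 (10). It was not the highest library for Msln, Gpm6a, Bnc1, Nkain4 or Cldn15, with Msln at 17.2 CPM against 22.9 CPM in NICD 5. The part of mesothelial RNA in the Upk3b counts was not tested.

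Of 10 duct markers, 9 were tested and 0 called by edgeR, with 3 at an unadjusted P under 0.05 (31.6% of all genes), 3 called by DESeq2 (2 higher and 1 lower, beside 18.2%) and 0 by limma-voom (7.18%), and a median of 0.59. Their summed level was 142 to 218 CPM in controls and 222 to 331 CPM in NICD libraries, with no overlap, where 8.22% of single genes were higher with no overlap. Most of the sum was Spp1 and Tspan8. For Spp1, a secreted duct phosphoprotein, the log2 fold change was 1.25 (adjusted P = 0.0556, edgeR). For Tspan8, a tetraspanin of duct and other epithelia, it was 0.38 (adjusted P = 0.175, edgeR). Of the 9 tested duct markers, 7 had positive log2 fold changes, and Krt19, a duct keratin, was the only one whose groups did not overlap, at 1.98 to 3.38 CPM in controls and 4.13 to 9.57 CPM in NICD libraries (1.17, edgeR adjusted P = 0.0597, DESeq2 0.00883). Cftr, the chloride channel of duct cells, was at 26.8, 22.7, 7.95 and 5.72 CPM in controls and 5.34 to 7.36 CPM in NICD libraries. The groups overlapped, and Cftr was the marker called lower by DESeq2 (log2 fold change -1.37, adjusted P = 0.0201, against 0.0894 by edgeR). The part of duct RNA in the level of Upk3a was not tested. Of 28 tested markers of acinar, endothelial, fibroblast and leukocyte cells, edgeR called 0, with 3 at an unadjusted P under 0.05, 1 called by DESeq2 and 0 by limma-voom, beside the same 31.6%, 18.2% and 7.18% of all genes. Their summed levels overlapped between the groups, at 31500 to 63700 against 26400 to 96300 CPM for acinar, 383 to 595 against 506 to 626 CPM for endothelial, 130 to 658 against 321 to 391 CPM for fibroblast and 77.5 to 104 against 79.7 to 104 CPM for leukocyte markers. With the mean log2 CPM of the 9 acinar markers as a covariate the log2 fold change of Upk3a was 8.82. Of 12 islet endocrine markers, edgeR called 0 higher and 2 lower (4.19% and 2.57% of all genes), with a median of -0.58. DESeq2 called 4 of the 12 (18.2% of all genes), limma-voom 3 (7.18%) and edgeR with the length offset 5 (10.3%). G6pc2 (log2 fold change -2.41, adjusted P = 0.000138, edgeR) and the glucose transporter gene Slc2a2 (-1.80, adjusted P = 0.0331, edgeR) fell in the libraries in which Upk3a was high. G6pc2 passed in all 8 fits that left out 1 library and Slc2a2 in 2 of 8, with an adjusted P of up to 0.109 (edgeR) in the other 6, which left out Control 1, 2 or 4 or NICD 2, 4 or 5. In the 5 libraries without Eif2s3y counts G6pc2 passed and Slc2a2 did not (edgeR adjusted P = 0.0179 and 0.307). For Ins2 the log2 fold change was -0.56 (edgeR adjusted P = 0.295), and -1.20 with the length offset, where it was called lower (edgeR adjusted P = 0.00599). Gcg, the glucagon gene of α cells, was at 11300, 19700, 41100 and 18500 CPM in controls and 59300, 67000, 53400 and 65200 CPM in NICD libraries, with no overlap. Its log2 fold change was 1.44 (edgeR adjusted P = 0.0622), and it was called higher by DESeq2 (adjusted P = 0.000591), by limma-voom (0.0393), with the acinar covariate (0.0429) and without Control 3 (0.0253) or NICD 1 (0.0326), but not with the length offset (log2 fold change 1.03, adjusted P = 0.0761). For Sst, the somatostatin gene of δ cells, the groups overlapped and the log2 fold change was 1.46 (edgeR adjusted P = 0.0619), with a call by DESeq2 (0.00233), with the acinar covariate (0.0345) and without Control 3 (0.0358) or NICD 1 (0.0103), but not by limma-voom (0.0553) or with the length offset (log2 fold change 0.83, adjusted P = 0.0843). The part of α and δ cell RNA in the level of Upk3a was not tested.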

How the data were processed

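Islet RNA of 4 control and 4 β-tetO-NICD mice had been made into stranded poly(A) libraries. The authors pseudoaligned reads with kallisto to GRCm38 and deposited whole-number counts summed per gene symbol, not normalized. The kallisto version is not given in the sources used here. The processing notes also name mm10, bcl2fastq and limma. The authors' own comparison table holds fold changes and P values and was not used.

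edgeR 4.0.16 in R 4.3.3 was run on the counts (TMM, quasi-likelihood test, a minimum of 10 counts in 4 or more of 8 libraries, Benjamini-Hochberg over 15082 genes, threshold 0.05). DESeq2 1.42.0 and limma-voom (limma 3.58.1) were alternatives, as were other scalings and filters, a length offset, an acinar covariate, a replicate block and leaving out each library. The fit to libraries without Eif2s3y counts was chosen after seeing the data. Symbols, positions and lengths came from GENCODE M21 (lengths matched 97.2% of tested genes) and upstream runs from RefSeq. Log2 CPM used a prior count of 2.

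The members and lists were chosen with earlier results of these data known. Named genes were the uroplakins, Notch1 and Notch targets, per list up to 4 genes with the smallest adjusted P past the threshold and the 2 with the highest mean CPM, tested neighbours of Upk3a within 100 kb and called neighbours of the others, the 5 genes most like Upk3a, and markers near 0. Single markers of the acinar, endothelial, fibroblast and leukocyte lists are not given, other than Pnlip in the closing section. Eif2s3y, Grhl3, Klf5, Snap23, Sst, Krt19, Cftr, Nkain4 and Cldn15 were chosen after their values were seen. Replicate libraries differed beyond sampling noise (chi-square at least 31.5 per gene). P values set the difference between the groups against the spread between these libraries. Counts set the precision: 3 counts equal 0.0995 to 0.151 CPM, which covers counting error only.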

Additional observations from a re-analysis of the deposited data

Results flagged for a closer look

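The highest or lowest of the 4 libraries of a group lay apart from the rest, by a gap that exceeded Dixon's critical share of the group's range, in 14 of 100 groups examined, where chance gives about 1 in 20. The gap as a share of the range is given for each gene. Among the uroplakins and Upk3bl, Control 3 was high for Upk3a (0.975), NICD 1 was high for Upk3b (0.878) and for Upk1b on a single count (1), and NICD 4 was high for Upk3bl on a single count (1). Among Notch targets, Control 4 was low for Hes5 (0.858, 0 counts against 1), Control 3 high for Nrarp (0.862) and Control 1 high for Dtx1 (0.943). Control 3 was the highest control for both Upk3a and Nrarp, with 102 counts of Nrarp against 64 to 72. NICD 4 was high for Lmntd1 (0.865) and low for Cldn4 (0.872), and NICD 1 was low for Tspan6 (0.877). Control 3 was high for Cd63 (0.906), Control 2 high for Msln (0.853), NICD 2 low for Gpm6a (0.871) and Control 1 high for Pnlip (0.939).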

How the results depend on the processing

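The log2 fold change of Upk3a lay between 8.24 (length offset) and 8.96 (replicates 1 and 2 as a block) under other scalings, filters and tools, at 8.15 in the libraries without Eif2s3y counts, and between 8.6 and 9.35 when 1 library was left out. Deviations of libraries with the same number correlated at 0.28 and -0.09 for numbers 1 and 2. These values are too few to settle whether libraries were paired by number. The block fit, on 4 libraries, called none of Fam118a (log2 fold change 0.69, edgeR adjusted P = 0.363), Pparg (0.109), Ehf (0.253), Rab27b (0.0808), Cd81 (0.17) and Tspan6 (0.235). It called Gcg (log2 fold change 2.08, edgeR adjusted P = 1.49e-09) and Sst (1.72, 5.31e-05) higher. Over all genes, 1046 (6.94%) were called with RLE scaling, 1158 (7.68%) with upper-quartile scaling, 982 (4.49%) unfiltered, 1014 (7.44%) with the all-library filter, 2739 (18.2%) by DESeq2, 1083 (7.18%) by limma-voom, 1364 (9.04%) with the acinar covariate, 1556 (10.3%) with the length offset, 610 (4.03%) with the block, 116 (0.756%) without Eif2s3y libraries, and 319 (2.14%, without NICD 2) to 4953 (33.2%, without NICD 1) with 1 library left out. These shares stand beside the following counts. Of 9 trafficking genes, 2 were called with RLE scaling, the all-library filter, limma-voom or the acinar covariate (1 higher, 1 lower), 3 with DESeq2 or the length offset (1 higher, 2 lower), 0 with the block and 0 to 5 with 1 library left out (5 without NICD 1, 2 higher and 3 lower). Of the duct markers, 2 were called with upper-quartile scaling, 1 unfiltered and 1 with the length offset (all higher), 3 with DESeq2 (2 higher, 1 lower), 1 with the block (Cftr, lower) and 0 to 2 with 1 library left out. Of the tetraspanins, 1 was called unfiltered, 5 with DESeq2, 0 with the block and 1 to 7 with 1 library left out, all higher. Of the urothelial factors, 3 were called with the length offset (2 higher with Rxra, 1 lower), 0 to 2 with 1 library left out and 1 with the block, which was Klf5 (log2 fold change -1.43, edgeR adjusted P = 0.0315) and neither of those called in all 8 libraries. Of genes next to uroplakins, 5 were called with DESeq2 (4 higher), 1 with the block (lower), 2 to 11 with 1 library left out (11 without NICD 1), 1 of 16 tested within 50 kb and 5 of 68 within 250 kb. Ranking by Pearson r shared 1 of the 5 genes most like Upk3a. Signs turned only in genes that were not called: Krt7 (0 with upper-quartile scaling, 0.05 with the length offset, -0.22 to 0.07 with 1 library left out), Cd63 (-0.01 with limma-voom, 0 with the length offset, -0.19 with the block, -0.27 to 0.25 with 1 library left out) and, with the length offset, Gm29666 (0.27) and 5031439G07Rik (0.08). The causes were not tested. Tspan6 lost its call with the length offset (adjusted P = 0.0848, edgeR). This depth cannot show whether Upk1b, Upk2 or Upk3b differ below 3 counts.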
